A study of Homo sapiens with 60 samples.

Results

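This report describes 10 genes that encode chaperones and folding helpers of the endoplasmic reticulum (ER), the compartment in which secreted and membrane proteins are made. The genes are HSPA5, HYOU1, DNAJB9, SDF2L1, HSP90B1, PDIA4, PDIA6, CALR, MANF and CRELD2, a list given by name and matched to the gene identifiers of the count table. They are 10 of 60675 genes in the table and of 16517 genes that passed the filter on low counts, and all 10 passed it. The cells were HepG2, an established human hepatocellular carcinoma line, profiled by RNA-seq 24 h after treatment. The 60 libraries form 20 groups of 3. The control group received the vehicle, given as 0.1% DMSO in the sample labels and as 2% DMSO in the text on the design, so its level is uncertain. A positive control group received 10 µM wortmannin, an inhibitor of phosphoinositide 3-kinases. The other 18 groups received a water extract of 1 of 6 medicinal herbs at a high, a medium or a low dose. These were 500, 100 and 20 µg/mL for Liriopis, Schisandrae, Longan, Zizyphi and Aucklandiae. Polygalae Radix was given at 450, 90 and 18 µg/mL, and the design text states that an extract with an IC20, the concentration that inhibits by 20%, below 500 µg/mL had that as its high dose. The labels give no DMSO level for the wortmannin and extract groups. Whether these differed from the vehicle in DMSO is therefore not known from the labels.

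Chaperones of the ER lumen bind unfolded chains and keep them soluble, and oxidoreductases of the same compartment form and rearrange their disulfide bonds. When unfolded protein builds up, the sensors encoded by ERN1, EIF2AK3 and ATF6 start the unfolded protein response, in which the factors ATF6 and XBP1 raise transcription of most of these genes through ER stress response elements in their promoters. Hepatocytes secrete most of the proteins of blood plasma and therefore carry a large amount of this machinery even without stress.

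Total counts per library ranged from 20.2 M to 36.4 M (M, mega). All 10 hepatocyte markers examined were above 0 in every library, with ALB (albumin) at 6077 to 8960 CPM (counts-per-million), whereas PTPRC and CD3E, which define immune cells, had no count in any of the 60 libraries. Of the 10 markers of other cell types examined, 6 were above 0 in every library: CD68, a lysosomal protein used as a macrophage marker, at 32.2 to 61.6 CPM, PECAM1, an endothelial marker, at 2.14 to 4.74, CD14 at 1.19 to 2.99, and COL1A1, VWF and CDH5 with medians under 1 CPM. Library codes fall into 5 sets whose meaning is not given: the vehicle and wortmannin each have a set of their own and Polygalae shares one with Aucklandiae. Every comparison with the vehicle therefore crosses sets, while the doses of one extract do not. Separate cultures are not stated for the replicates, so that p-values measure the spread between libraries, which may be technical, and in bulk RNA fewer cells of a kind and less RNA per cell cannot be told apart. All comparisons with the vehicle share its 3 libraries. Levels are CPM after scaling of library sizes, and fold changes are log2 values. Each was tested with edgeR by quasi-likelihood, p-values were adjusted over all 16517 genes by the Benjamini-Hochberg method, and a gene was called at an adjusted p under 0.05.

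The promoters of the listed genes are shown first because they carry the sequence element through which most are known to be controlled together. The ER stress response element (ERSE), written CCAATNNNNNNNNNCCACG, joins a CCAAT box, bound by the NF-Y complex, to a CCACG part that ATF6 and XBP1 recognise. The ERSE was searched on both strands, from 250 bases upstream of each RefSeq start to a short stretch downstream of it (build GRCh38.p14). It matched in 27 of 35116 promoters, which is 0.0769%, and in 0.0916% of genes, as a gene can have several starts. Matches lay upstream of a RefSeq start in 5 of the 10 genes, HSPA5, HSP90B1, PDIA6, CRELD2 and CALR. Those of HSP90B1, PDIA6 and CRELD2 lay inside the gene spans given below. For PDIA6 the match was at an inner start (chr2:10812786-10813035). The window at its outer start (chr2:10832486-10832735) held no ERSE and no CCAAT box. The shorter element ERSE-II, written ATTGGNCCACG, matched in 19 promoters (0.0541%, and 0.0696% of genes), among them those of HYOU1 and SDF2L1. No match to either was found upstream of PDIA4, DNAJB9 and MANF, which says only that these letters are not in that window. The CCAAT box alone, part of both elements, was held by 34.6% of promoters and 39.7% of genes. It matched in at least 1 window of each of the 10. The letters TGACGTGG, the core bound by XBP1 and ATF6, matched in 0.729% of promoters and 0.927% of genes. They matched in 1 of the 10, HYOU1, where the match overlaps an ERSE-II. The amino acid response core TGATGNAA, bound by ATF4, was in 3.62% of promoters (4.46% of genes) and in none of the 10. A match is a description of the letters and not a bound site. The 250 bases upstream of HSPA5 (chr9:125241344-125241593, minus strand, read 5′ to 3′ along the gene) follow, with the ERSE in capitals.
HSPA5: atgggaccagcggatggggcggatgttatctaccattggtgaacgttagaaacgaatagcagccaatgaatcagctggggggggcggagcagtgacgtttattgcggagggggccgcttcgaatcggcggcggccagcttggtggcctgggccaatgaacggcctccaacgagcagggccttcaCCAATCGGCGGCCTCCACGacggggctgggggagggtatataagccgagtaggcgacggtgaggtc
The ERSE begins 66 bases and ends 47 bases before the start site. The next lines give, along each gene, the matches of 4 further genes, with the ERSE or ERSE-II in capitals and up to 15 flanking bases where these lie upstream of the annotated gene. HYOU1 (chr11:119057259-119057299, minus strand) is shown for the match nearer to its start, SDF2L1 at chr22:21642099-21642139 and CALR at chr19:12938369-12938417, both on the plus strand. HSP90B1 (chr12:103930321-103930339, plus strand) holds a pair of ERSE, of which the nearer one is printed without flanks.
HYOU1: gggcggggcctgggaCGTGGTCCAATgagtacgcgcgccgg
SDF2L1: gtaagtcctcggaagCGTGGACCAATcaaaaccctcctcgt
CALR: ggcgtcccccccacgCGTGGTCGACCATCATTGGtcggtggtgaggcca
HSP90B1: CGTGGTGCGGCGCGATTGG
The capitals of HYOU1, SDF2L1, CALR and HSP90B1 read as the reverse complement of the element, while those of HSPA5 read in its own direction.

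Under Polygalae Radix most of the chaperone genes fell, and further at the higher dose. Against the vehicle, the high dose lowered 9 of the 10 genes, and none rose, where 9.94% of all tested genes were called lower. The medium dose lowered 8, all but SDF2L1 and CRELD2 (5.73% of all genes), and the low dose 5 (7.01%). The median log2 fold change over the 10 genes was -0.60, -0.36 and -0.19 at the high, medium and low dose, beside 0.01, 0.00 and 0.00 over all tested genes. Within 1 code set, the high against the low dose lowered 8 of the 10 (2.7% of all genes), and for all 10 every high-dose library lay below every low-dose library. How many of all tested genes were separated in this way was not counted. The plot of CPM by dose shows the values that the next paragraphs give gene by gene.

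**Figure D1:**
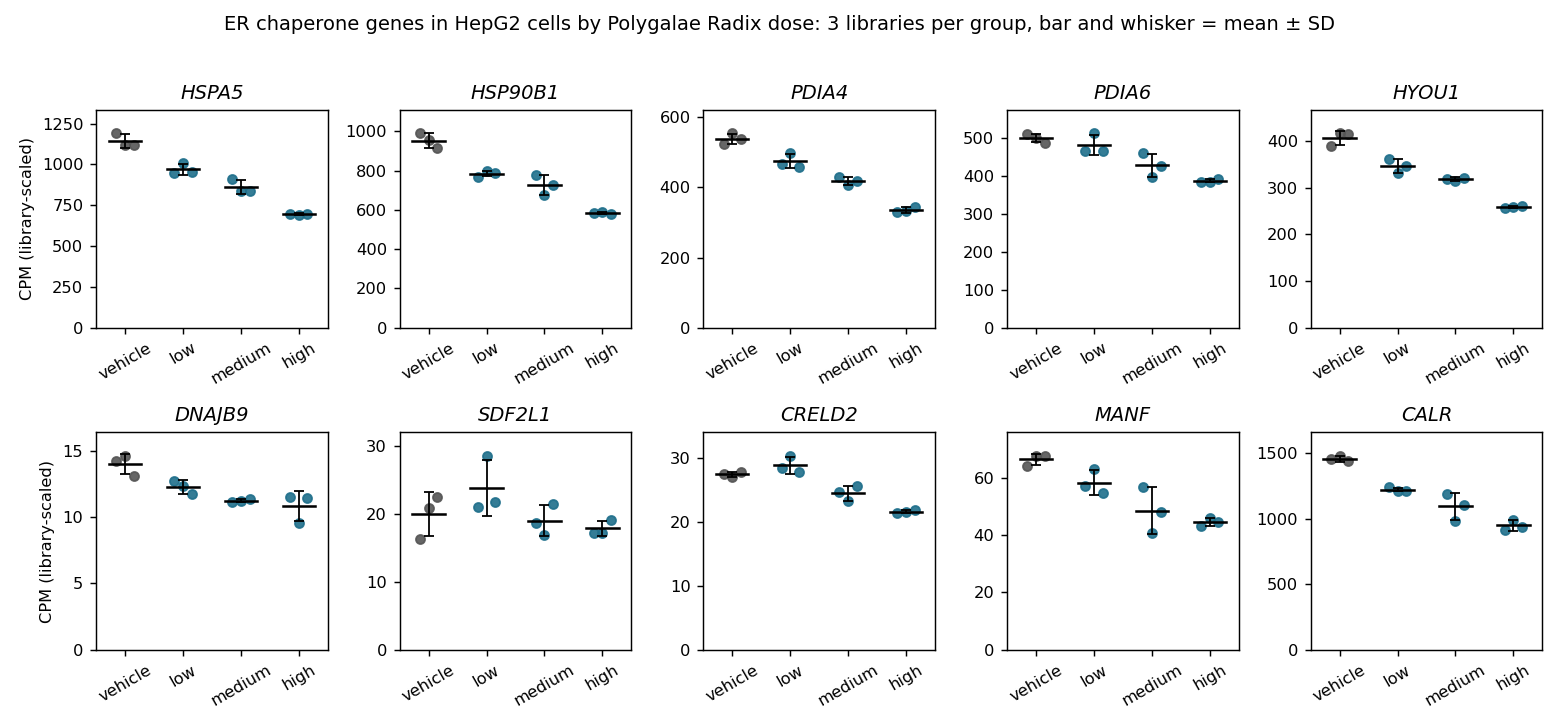
Library-scaled CPM of each of the 10 genes (y axis, from 0) in the vehicle group and at the low, medium and high dose of Polygalae Radix (x axis). Points are the 3 libraries of a group, bars and whiskers the mean and SD. HSPA5 steps down from a mean of 1143 CPM in the vehicle to 694 at the high dose, while SDF2L1 overlaps the vehicle at every dose.

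HSPA5 (ENSG00000044574, chr9:125234853-125241330, minus strand, GENCODE 29 on GRCh38), also called BiP, is the Hsp70 chaperone of the ER lumen and binds the sensors of the stress response when it is not engaged with clients. The CPM of HSPA5 were 1190.2, 1119.6 and 1120.2 in the vehicle libraries, 951, 1008 and 953 at the low dose, 911, 837 and 835 at the medium dose and 696, 688 and 699 at the high dose. The 4 sets of libraries did not overlap, and each dose lay below the one before it. The high dose stood 39.3% below the vehicle mean, a log2 fold change of -0.72 ± 0.04 (SE, adjusted p = 5.61e-19), and -0.48 ± 0.04 from the low dose (adjusted p = 1.91e-12). HYOU1 (ENSG00000149428, chr11:119044189-119057202, minus strand), a large relative of Hsp70, exchanges the nucleotide of HSPA5 and so drives its cycle. The CPM of HYOU1 were 390.2, 416 and 416 in the vehicle libraries, 361, 331 and 346 at the low dose, 319.8, 314 and 322 at the medium dose and 256, 259 and 261 at the high dose. Its libraries were likewise apart at every dose. HYOU1 had a log2 fold change of -0.66 ± 0.04 for the high dose against the vehicle (adjusted p = 4.08e-18) and of -0.42 ± 0.04 for high against low (adjusted p = 3.16e-11).

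DNAJB9 and SDF2L1 encode cochaperones of HSPA5. DNAJB9 (ENSG00000128590, chr7:108569568-108574850, plus strand) carries the J domain that stimulates the ATPase of HSPA5. The CPM of DNAJB9 were 14.2, 14.6 and 13.1 in the vehicle libraries, 12.7, 12.3 and 11.7 at the low dose, 11.2, 11.2 and 11.4 at the medium dose and 11.5, 9.56 and 11.5 at the high dose. Every treated library lay below the vehicle, but the high and medium doses overlapped. DNAJB9 fell against the vehicle at the high dose (-0.37 ± 0.10, adjusted p = 0.00662) and the medium dose (-0.32 ± 0.10, adjusted p = 0.0331), and the high against the low dose was not called (-0.18 ± 0.10, adjusted p = 0.423). Both calls end when 1 library is left out: without high-dose replicate 2 the first had an adjusted p of 0.0643, and the second was lost without vehicle replicate 1 or 2 or medium-dose replicate 2 or 3 (adjusted p 0.0815 to 0.112). SDF2L1 (ENSG00000128228, chr22:21642261-21644298, plus strand) acts in a complex with HSPA5 and a J protein. The CPM of SDF2L1 were 16.3, 20.95 and 22.6 in the vehicle libraries, 21.1, 28.6 and 21.8 at the low dose, 18.7, 16.97 and 21.5 at the medium dose and 17.3, 17.3 and 19.2 at the high dose. The vehicle libraries spread widely and overlapped each dose, and low-dose replicate 2 was the highest of all 60 libraries. SDF2L1 was the 1 gene not called at the high dose against the vehicle (-0.16 ± 0.13, adjusted p = 0.457), and the high against the low dose missed the threshold (-0.42 ± 0.13, adjusted p = 0.0525). Other settings moved it past the threshold: DESeq2 gave an adjusted p of 0.0306 for high against low.

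HSP90B1 (ENSG00000166598, chr12:103930107-103953645, plus strand), also called GRP94, is the Hsp90 of the ER and finishes the folding of selected clients such as integrins and Toll-like receptors. The CPM of HSP90B1 were 989, 953 and 915 in the vehicle libraries, 768, 795 and 789.9 at the low dose, 775, 675 and 726 at the medium dose and 585, 589.7 and 581 at the high dose. High-dose libraries lay below all others, while medium and low doses met at their edges. The log2 fold change of HSP90B1 was -0.70 ± 0.05 for the high dose against the vehicle (adjusted p = 5.74e-14) and -0.42 ± 0.05 for high against low (adjusted p = 2.4e-07).

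PDIA4 and PDIA6 are disulfide isomerases. PDIA4 (ENSG00000155660, chr7:149003062-149028641, minus strand), also called ERp72, has an extra thioredoxin-like domain. The CPM of PDIA4 were 524, 554 and 538 in the vehicle libraries, 468, 498 and 458 at the low dose, 429, 408 and 418 at the medium dose and 330.2, 332 and 344 at the high dose. No 2 of the 4 sets of libraries overlapped. PDIA4 fell against the vehicle at the high dose (-0.68 ± 0.04, adjusted p = 1.15e-16) and between low and high (-0.50 ± 0.04, adjusted p = 7.81e-12), the largest of the 10 changes over that dose range. PDIA6 (ENSG00000143870, chr2:10783391-10837977, minus strand), also called P5, works with HSPA5 on shared clients. The CPM of PDIA6 were 511, 500.0 and 488 in the vehicle libraries, 466, 512 and 465 at the low dose, 459, 399 and 426 at the medium dose and 385, 384 and 391 at the high dose. Low-dose libraries overlapped the vehicle, and the medium and high doses lay below it. PDIA6 was not called at the low dose (-0.06 ± 0.04, adjusted p = 0.427) and fell at the high dose (-0.37 ± 0.04, adjusted p = 6.02e-09) and from low to high (-0.31 ± 0.04, adjusted p = 7.23e-07).

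CALR (ENSG00000179218, chr19:12938578-12944489, plus strand), calreticulin, is the soluble lectin chaperone that binds glycoproteins with trimmed sugar chains and stores calcium. The CPM of CALR were 1457, 1483 and 1439 in the vehicle libraries, 1239.8, 1215 and 1216 at the low dose, 1193, 986 and 1106 at the medium dose and 915, 994 and 941 at the high dose. Every dose lay below the vehicle, and the medium and high doses overlapped. CALR had a log2 fold change of -0.62 ± 0.06 for the high dose against the vehicle (adjusted p = 2.73e-11) and of -0.36 ± 0.06 for high against low (adjusted p = 2.9e-05).

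MANF and CRELD2 encode small ER proteins that are secreted under stress. MANF (ENSG00000145050, chr3:51385047-51389397, plus strand) binds HSPA5 and steadies its complexes with clients. The CPM of MANF were 64.2, 67.5 and 67.7 in the vehicle libraries, 57.1, 63.1 and 54.6 at the low dose, 56.9, 40.6 and 48.01 at the medium dose and 43.1, 45.8 and 44.6 at the high dose. Treated libraries all lay below the vehicle, and the medium dose was the most spread, from below the high dose into the low dose. MANF fell at the high dose (-0.58 ± 0.11, adjusted p = 0.00018) and between low and high (-0.39 ± 0.11, adjusted p = 0.0386). The last call rests on single libraries: leaving out any 1 of the 3 high-dose libraries or low-dose replicate 1 or 2 raised its adjusted p to between 0.0714 and 0.239. CRELD2 (ENSG00000184164, chr22:49918167-49927540, plus strand) has thioredoxin-like motifs and binds partly folded chains. The CPM of CRELD2 were 27.4, 27.1 and 27.8 in the vehicle libraries, 28.4, 30.4 and 27.8 at the low dose, 24.6, 23.2 and 25.6 at the medium dose and 21.3, 21.5 and 21.9 at the high dose. The low dose lay at or above the vehicle, and the medium and high doses lay below it without overlap. CRELD2 fell at the high dose (-0.35 ± 0.07, adjusted p = 0.00042) and from low to high (-0.42 ± 0.07, adjusted p = 8.09e-05), but not at the medium dose (-0.17 ± 0.07, adjusted p = 0.127) or the low dose (0.07 ± 0.07, adjusted p = 0.552).

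The 5 genes that fell at every dose against the vehicle were HSPA5, HSP90B1, PDIA4, HYOU1 and CALR, which were also among the 6 most abundant of the 10 per kilobase of exon in the vehicle. Per kilobase, CALR led with 538 CPM, followed by HSPA5 with 293, HSP90B1 with 203, PDIA4 with 164, PDIA6 with 122 and HYOU1 with 53.0. MANF had 27.9, SDF2L1 18.2, CRELD2 5.31 and DNAJB9 4.93 CPM per kilobase. The step from medium to high dose lowered 6 of the 10 (2.14% of all genes), HSPA5, HSP90B1, PDIA4, PDIA6, HYOU1 and CALR, with log2 changes from -0.32 for PDIA4 to -0.15 for PDIA6. The calls of PDIA6 and CALR in this step were lost without 1 library in 5 and 4 of the 6 cases, with adjusted p up to 0.251 and 0.209. The step from low to medium lowered 3 (0.363%), HSPA5 (-0.17 ± 0.04, adjusted p = 0.0231), PDIA4 (-0.18 ± 0.04, adjusted p = 0.0313) and PDIA6 (-0.17 ± 0.04, adjusted p = 0.0448). Both steps were 5-fold in dose. The difference between the steps was called for none of the 10 by edgeR (0.781% of all genes called lower). At an unadjusted p under 0.05 by edgeR were 2 of the 10, beside 2420 of all 16517 genes. DESeq2 called the difference for 1, HYOU1, whose second step was larger (-0.18 ± 0.07, edgeR adjusted p = 0.177). Neither step was called for any of the 10 when only the libraries of the 2 doses compared were fitted. The smaller step also rests on single libraries: its count was 0 without medium-dose replicate 2 or 3 or low-dose replicate 2, 1 without low-dose replicate 1 and 5 without medium-dose replicate 1.

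Properties of the libraries moved with the groups. Structured non-coding RNA (ribosomal, small nuclear and the like) took 2.89% to 2.90% of counts at the high dose of Polygalae, 2.49% to 2.74% at the low dose and 3.43% to 3.84% in the vehicle. Messenger RNA of mitochondria took 9.31% to 11.2%, 7.06% to 11.2% and 13.0% to 16.1%. With the structured share and each library's dependence on GC content as covariates, 9 of the 10 genes were called lower at the high dose against the vehicle and 9 from low to high. DNAJB9 then lost its call against the vehicle (-0.29, adjusted p = 0.0782) and SDF2L1 gained one (-0.43, adjusted p = 0.000169), and 3 of the 10 were called when the low dose was set against the vehicle. The 10 hepatocyte markers, themselves secretory genes in part, summed to 36635 to 37449 CPM at the high dose, 38531 to 46108 at the low dose and 46214 to 50112 in the vehicle, and their part in the result was not tested.

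Across all 20 groups the high dose of Polygalae gave the lowest mean of each of the 10 genes. For HSPA5, HSP90B1, PDIA4, PDIA6, HYOU1 and CRELD2 no library of another group reached down to its highest library. For CALR 1 of the other 57 libraries did, for MANF 1, for DNAJB9 5 and for SDF2L1 12. How many of all tested genes had their lowest mean at high-dose Polygalae, or no such overlap, was not counted. The medium dose of Polygalae was next lowest for 7 genes, high-dose Aucklandiae for CALR (1049, 1016 and 1026 CPM) and CRELD2 (24.6, 23.8 and 23.8 CPM), and wortmannin for SDF2L1 (19.1, 17.9 and 17.4 CPM). The lowest and second lowest group overlapped for DNAJB9, SDF2L1 and MANF only. Over the whole order the groups lay close: of the 19 pairs of neighbouring groups, the lowest included, 16 to 19 overlapped, depending on the gene. The highest group mean ranged from 1.31 times the lowest for PDIA6 to 1.68 times for HSPA5.

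**Figure D2:**
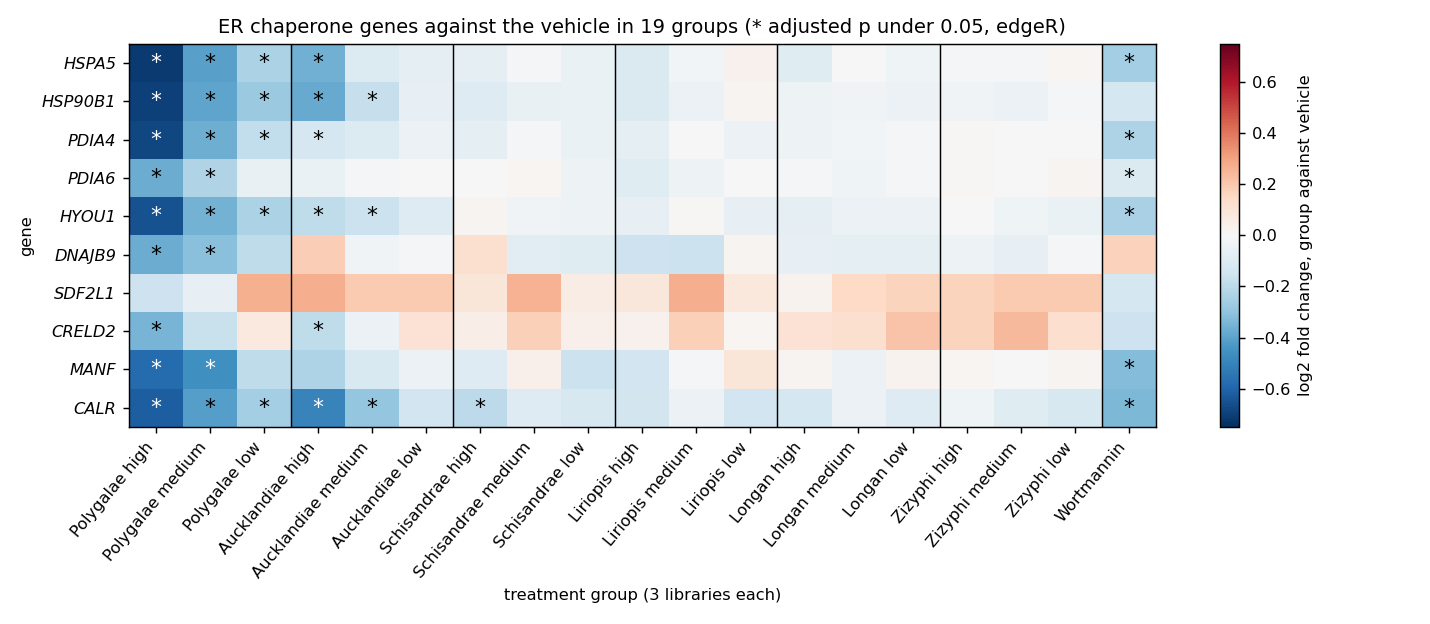
Log2 fold change of each of the 10 genes (rows) in each of 19 treated groups (columns, 3 libraries each) against the vehicle, from blue (lower) to red (higher), with asterisks at an adjusted p under 0.05. The 3 Polygalae columns and the high-dose Aucklandiae and wortmannin columns are blue for most genes, and SDF2L1 is positive in most other columns without a call.

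Outside Polygalae, 16 of 160 pairs of a gene and a group were called lower than the vehicle and none higher by edgeR, with 10 lower without vehicle replicate 2 and 1 higher by DESeq2. The share of all genes called lower ran from 0.00605% to 16.2% over these 16 groups and is given below with each. High-dose Aucklandiae lowered 6 of the 10 (12.5% of all genes). CALR changed most there, from 1457, 1483 and 1439 CPM in the vehicle to 1049, 1016 and 1026, a log2 fold change of -0.50 ± 0.06 (adjusted p = 3.33e-09). HSP90B1 (-0.38 ± 0.05, adjusted p = 3.61e-07), HSPA5 (-0.36 ± 0.04, adjusted p = 8.52e-10) and HYOU1 (-0.19 ± 0.04, adjusted p = 0.000118) followed, with PDIA4 (-0.12 ± 0.04, adjusted p = 0.029) and CRELD2 (-0.19 ± 0.07, adjusted p = 0.0489) near the threshold. The call of CRELD2 was lost without any 1 of the 6 libraries (adjusted p 0.0706 to 0.115) and that of PDIA4 without vehicle replicate 2 or high-dose replicate 3. SDF2L1 (23.5, 25.05 and 23.7 CPM) and DNAJB9 (16.8, 16.04 and 14.98 CPM) had all 3 Aucklandiae libraries above the vehicle, without a call (0.27 ± 0.13 and 0.19 ± 0.10). The medium dose lowered HSP90B1, HYOU1 and CALR (2.47% of all genes), with -0.29 ± 0.06 for CALR. The low dose lowered none by edgeR or DESeq2 (2.26%), with 2 at an unadjusted p under 0.05 by edgeR, beside 2996 of all 16517 genes. From low to high Aucklandiae, HSPA5, HSP90B1, CRELD2 and CALR fell (7.14% of all genes), with -0.36 ± 0.06 for CALR (adjusted p = 8.52e-06).

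Wortmannin lowered 6 of the 10 (16.2% of all genes). HSPA5 was at 968, 967 and 944 CPM, 16.1% below the vehicle mean (-0.25 ± 0.04, adjusted p = 1.84e-06), and CALR at 1173, 1181 and 1107 (-0.34 ± 0.06, adjusted p = 9.83e-06). HYOU1 (-0.25 ± 0.04), PDIA4 (-0.23 ± 0.04), MANF (-0.32 ± 0.11) and PDIA6 (-0.11 ± 0.04) were also called. HSP90B1, close to HSPA5 under Polygalae, was not (-0.13 ± 0.05, adjusted p = 0.0614), and it was called by DESeq2 (adjusted p = 0.0421). DNAJB9 had a positive value (0.17 ± 0.10, adjusted p = 0.197). Calls of PDIA6 (adjusted p 0.0861 to 0.163 without vehicle replicate 1 or 2 or wortmannin replicate 1 or 3) and MANF (0.0516 to 0.0874 without vehicle replicate 2 or 3 or wortmannin replicate 2 or 3) rest on single libraries.

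The remaining 4 extracts left the genes near the vehicle. High-dose Schisandrae lowered CALR alone (1178, 1348 and 1294 CPM, -0.20 ± 0.06, adjusted p = 0.0149), where 7.25% of all genes were called lower. Its medium and low doses lowered none (1.2% and 0.0182% of all genes). Liriopis lowered none at the high, medium or low dose (0.00605%, 0.0121% and 0.0121%), nor did Longan (0.842%, 0.0303% and 0.206%) or Zizyphi (1.86%, 0.285% and 0.951%). At an unadjusted p under 0.05, 0 to 3 of the 10 differed in each of these 11 groups by edgeR, beside 1566 to 3081 of all 16517 genes. DESeq2 called 1 of the 10, a higher CRELD2 under medium-dose Zizyphi. From low to high dose no gene was called by either tool under Liriopis (0% of all genes lower, with 4 of the 10 at an unadjusted p under 0.05), Schisandrae (4.8%, with 1), Longan (0%, with 0) or Zizyphi (0.139%, with 0). Of all 16517 genes, 806, 3333, 441 and 1256 were at an unadjusted p under 0.05 by edgeR, in the same order of extracts. Several of these groups have few calls among all genes, so that their 0 is near the background.

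**Figure D3:**
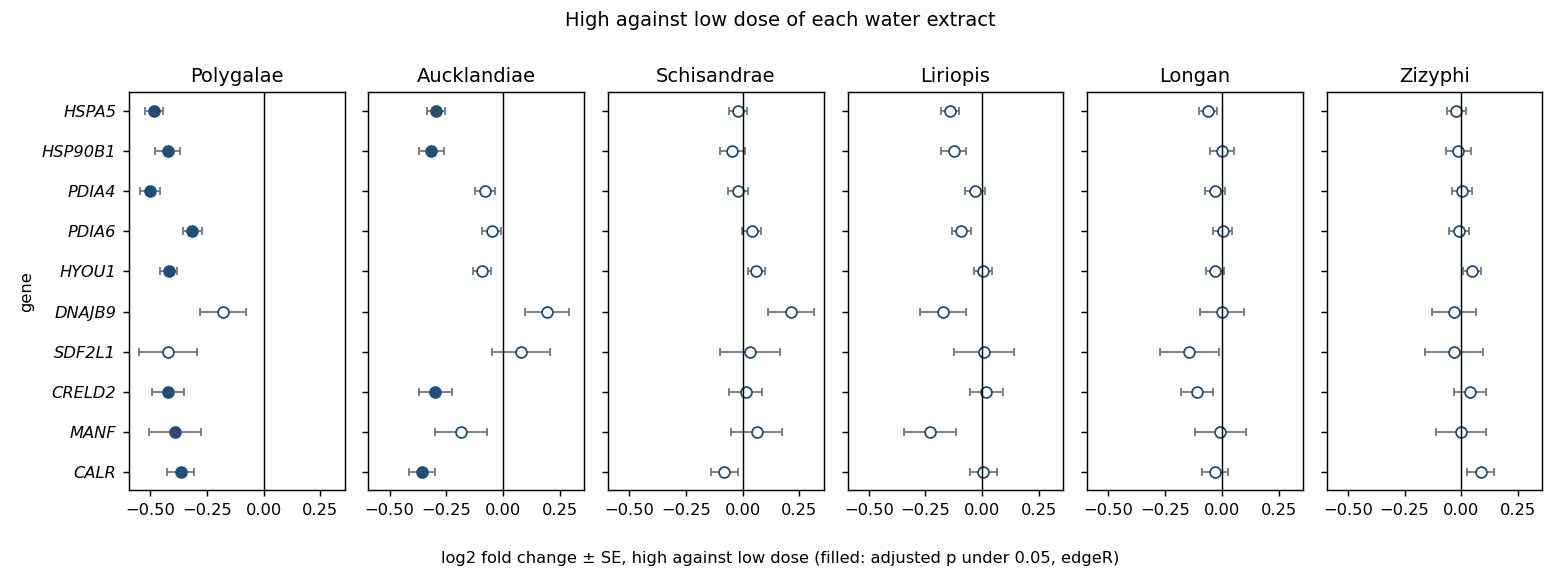
Log2 fold change of the high against the low dose (x axis, ± SE) for each of the 10 genes (y axis) under each extract, from 3 libraries a dose. Filled points have an adjusted p under 0.05; Polygalae has 8 filled points, Aucklandiae 4 and the other extracts none.

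The difference between extracts was tested directly, as the change from low to high dose under Polygalae less that under another extract, each over a 25-fold range of dose. Against Liriopis the change was lower for 7 of the 10 genes (0.872% of all genes), against Schisandrae for 7 (3.6%), against Longan for 6 (0.702%), against Zizyphi for 7 (1.31%) and against Aucklandiae for 4 (4.18%). HSPA5, PDIA4, PDIA6 and HYOU1 were called in all 5 tests, though not all of these calls held without 1 library. That of PDIA6 against Liriopis was lost in 9 of 12 fits that left 1 library out (adjusted p 0.072 to 0.299), namely all but those without low-dose Liriopis replicate 1 or low-dose Polygalae replicate 1 or 3. The count against Liriopis fell to 4 without high-dose Liriopis replicate 1 or low-dose Polygalae replicate 2. Beside Aucklandiae, PDIA4 differed most (-0.42 ± 0.06, adjusted p = 3.27e-06), having fallen by 0.50 under Polygalae with a value of -0.08 ± 0.04 under Aucklandiae. HYOU1 differed by -0.33 ± 0.05 (adjusted p = 3.02e-05), PDIA6 by -0.26 ± 0.06 (adjusted p = 0.00251) and HSPA5 by -0.19 ± 0.06 (adjusted p = 0.0296). The call of HSPA5 was lost without any 1 of the high-dose Polygalae libraries, low-dose Polygalae replicate 2, high-dose Aucklandiae replicate 1 or low-dose Aucklandiae replicate 2 or 3 (adjusted p 0.0527 to 0.149), and when only the groups compared were fitted (0.0985) or no filter was used (0.469). For CALR the difference was -0.01 ± 0.08 (adjusted p = 0.982) and for HSP90B1 -0.11 ± 0.08 (adjusted p = 0.501). MANF, DNAJB9 and SDF2L1 did not pass in any of the 5 tests in this fit, though other settings gave calls. Beside Schisandrae, MANF passed with no filter on low counts (edgeR adjusted p = 0.00049) and when only the groups compared were fitted (0.0264). With no filter, MANF also passed beside Longan and Zizyphi, and SDF2L1 beside Schisandrae (0.00886) and Aucklandiae (0.00207).

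The 10 genes did not follow one another equally over the 20 groups. As a description over group means of log2 CPM, whose points partly share code sets, the 45 pairs had Pearson r from 0.12 to 0.98 with a median of 0.86. HSPA5 and HSP90B1 were the closest pair. PDIA4 had an r of 0.98 with the mean of the other 9, whereas SDF2L1 had 0.56 and DNAJB9 0.41. Without the 3 Polygalae groups the median r over 17 groups was 0.66, and the lowest was -0.74, between DNAJB9 and CALR. Deviations of the 60 libraries from their group means had a median r of 0.31. The genes outside the list whose group means were most like the mean of the 10 were PDIA3 (r = 0.95), NUCB2 (0.92), UBA1 (0.91), IRF2BPL (0.91), PDXDC1 (0.91), NANS (0.91), PRDX2 (0.90), PPIB (0.89), MORF4L2 (0.89) and P4HB (0.89). PDIA3, PPIB and P4HB encode ER folding enzymes. The least alike were PFKFB2 (-0.93), ASAH1 (-0.89) and KLF13 (-0.89). The mean of the 10 was at -0.44 and -0.24 log2 CPM from its average at high-dose and medium-dose Polygalae. All other groups lay between -0.10 and 0.10, so that these r values depend largely on those groups of Polygalae. For genes outside the list, r without the Polygalae groups was not computed.

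Other genes of protein folding and secretion were counted in lists, where under high-dose Polygalae against the vehicle 9.94% of all genes were called lower and 10.2% higher. Of 24 further ER folding genes 13 fell and none rose (median -0.24), and 5 fell from low to high dose, with 3 without low-dose replicate 2. PPIB, a prolyl isomerase, had 311, 344 and 326 CPM in the vehicle, 327, 343 and 297 at the low dose and 239, 235 and 245 at the high dose, with every high-dose library below the vehicle (-0.45 ± 0.08, adjusted p = 6.51e-05). PDIA3, the isomerase that works with CALR, fell with a log2 fold change of -0.58 ± 0.08 (adjusted p = 1e-06), and P4HB, the prototype of the family, with -0.30 ± 0.04 (adjusted p = 4.23e-08). Genes of transport between ER and Golgi fell for 18 of 20 (median -0.28) and from low to high for 9, with 5 without high-dose replicate 1. COPA, a coat subunit of vesicles that return to the ER, changed by -0.45 ± 0.05 from low to high, SEC24D, a cargo adaptor of outgoing vesicles, by -0.44 ± 0.05, and KDELR3, a receptor that retrieves ER residents such as HSPA5, by -0.40 ± 0.11. ER import and glycosylation genes fell for 10 of 20 against the vehicle and for 6 from low to high, among them RPN1 (-0.21 ± 0.04), RPN2 (-0.23 ± 0.05) and SEC61A1 (-0.22 ± 0.06). SEC61A1 was not called at the high dose against the vehicle (-0.15 ± 0.06, adjusted p = 0.0799). Of 19 genes of ER-associated degradation 6 fell and 3 rose against the vehicle, of which rises 1 was called without vehicle replicate 1 or high-dose replicate 3. From low to high 4 fell (2 without high-dose replicate 2), and these 4 were HERPUD1 (-0.27 ± 0.05), OS9 (-0.29 ± 0.04), EDEM2 (-0.22 ± 0.06) and SYVN1 (-0.19 ± 0.06), the last named after its value was seen. Against the vehicle, EDEM2 was not called at the high dose (-0.03 ± 0.06, adjusted p = 0.786). It was called higher at the low dose (0.19 ± 0.06, adjusted p = 0.0175). From low to high, 2.7% of all genes were called lower and 1.23% higher.

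The sensors and factors of the response itself were called in both directions. Of 17 tested, 5 fell and 2 rose at the high dose against the vehicle, with 2 that fell without high-dose replicate 1 and 3 without replicate 3. ERN1, the sensor kinase and RNase that splices XBP1 mRNA, rose from 13.3, 12.4 and 13.95 CPM in the vehicle and 15.7, 13.6 and 14.7 at the low dose to 17.4, 16.9 and 18.6 at the high dose, which lay above both (0.41 ± 0.07, adjusted p = 6.48e-06, and against the low dose 0.27 ± 0.06, adjusted p = 0.00606). High-dose Aucklandiae raised ERN1 as well (0.57 ± 0.07, adjusted p = 2.69e-09). The change of ERN1 from low to high dose was not called different between Polygalae and Aucklandiae (-0.13 ± 0.09, adjusted p = 0.478). XBP1 was called just inside the threshold (0.25 ± 0.09, adjusted p = 0.0498), and without any 1 of the 6 libraries 1 of the 17 rose in place of 2. EIF2AK3, the sensor kinase that slows translation, fell (-0.26 ± 0.07, adjusted p = 0.00563). ATF6 (-0.12 ± 0.08), ATF4 (0.10 ± 0.09) and DDIT3 (0.21 ± 0.14) were not called. The other 4 that fell, named after their values were seen, were CREB3L2 (-0.34 ± 0.07) and the NF-Y subunits NFYA (-0.13 ± 0.04), NFYB (-0.31 ± 0.09) and NFYC (-0.21 ± 0.07), which bind the CCAAT part of the elements printed above. From low to high Polygalae, NFYA, NFYB and NFYC had 0.03 ± 0.04, -0.08 ± 0.09 and -0.03 ± 0.07, without a call. High-dose Aucklandiae also lowered all of these subunits (-0.16 ± 0.04, -0.40 ± 0.09 and -0.22 ± 0.07). Wortmannin lowered NFYA (-0.29 ± 0.04) and NFYB (-0.31 ± 0.09). Their part in the chaperone changes was not tested. From low to high dose 1 of the 17, ERN1, was called, and 0 to 3 rose when 1 library was left out. These are gene-level counts and do not show the splicing of XBP1 or the cleavage of ATF6.

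Targets of ATF4, the factor of the branch that answers to amino acid shortage as well as ER stress, were mostly higher. Of 14 tested, 9 rose and 1 fell at the high dose against the vehicle (median 0.58), and 6 rose and 1 fell from low to high. The 6 became 2 without low-dose replicate 1 or high-dose replicate 2 and 3 without high-dose or low-dose replicate 3. SLC7A11, the cystine importer, had 42.9, 40.8 and 39.2 CPM in the vehicle, 37.2, 37.9 and 41.98 at the low dose and 64.4, 72.1 and 65.5 at the high dose, with only the high dose apart (0.79 ± 0.08 against the low dose, adjusted p = 2.61e-09). NUPR1, a stress-induced chromatin protein (0.60 ± 0.16), and DDIT4, an inhibitor of the mTOR kinase (0.50 ± 0.15), also rose, while PHGDH, the first enzyme of serine synthesis, fell (-0.24 ± 0.06). Heat shock genes of the cytosol and mitochondria, which answer to another factor, fell for 8 of 16 against the vehicle (median -0.18) and for 7 from low to high, with 4 without high-dose replicate 1 or 2 or low-dose replicate 2. HSPA1A (-0.32 ± 0.09), HSP90AA1 (-0.30 ± 0.06) and HSP90AB1 (-0.28 ± 0.04) changed most. Counts from low to high over these 7 lists rest on few libraries: 32 genes fell in all, but 21 without high-dose replicate 1 and 20 without high-dose replicate 2, and 7 rose, but 3 without low-dose replicate 1 or high-dose replicate 2 or 3.

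High-dose Aucklandiae, which also lowered 6 of the 10 chaperones, gave other counts in these lists (12.5% of all genes lower and 13.6% higher). Of the 20 ER import and glycosylation genes 10 rose and 1 fell (median 0.15), of the 24 further folding genes 6 rose and 1 fell, and of the 20 transport genes 4 rose and 2 fell. ATF4 targets rose for 6 of 14 and fell for 1, and heat shock genes fell for 8 of 16 and rose for 1. Of the 17 sensors and factors 3 rose (ERN1, CREB3 and CREB3L3) and 3 fell (NFYA, NFYB and NFYC). Single libraries decide several of these counts: without vehicle replicate 2, 5 heat shock genes fell, without vehicle replicate 1 or high-dose replicate 1 or 2 no transport gene fell, and without vehicle replicate 1 or high-dose replicate 2 no import gene did. Tested gene by gene as the change from low to high dose under Polygalae less that under Aucklandiae, 10 of the 20 import and glycosylation genes, 6 of the 20 transport genes and 5 of the 24 folding genes were lower (4.18% of all genes). Among the import genes, RPN1 (-0.34 ± 0.05, adjusted p = 3.55e-06) and SEC61A1 (-0.36 ± 0.09, adjusted p = 0.00455) differed.

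**Figure D4:**
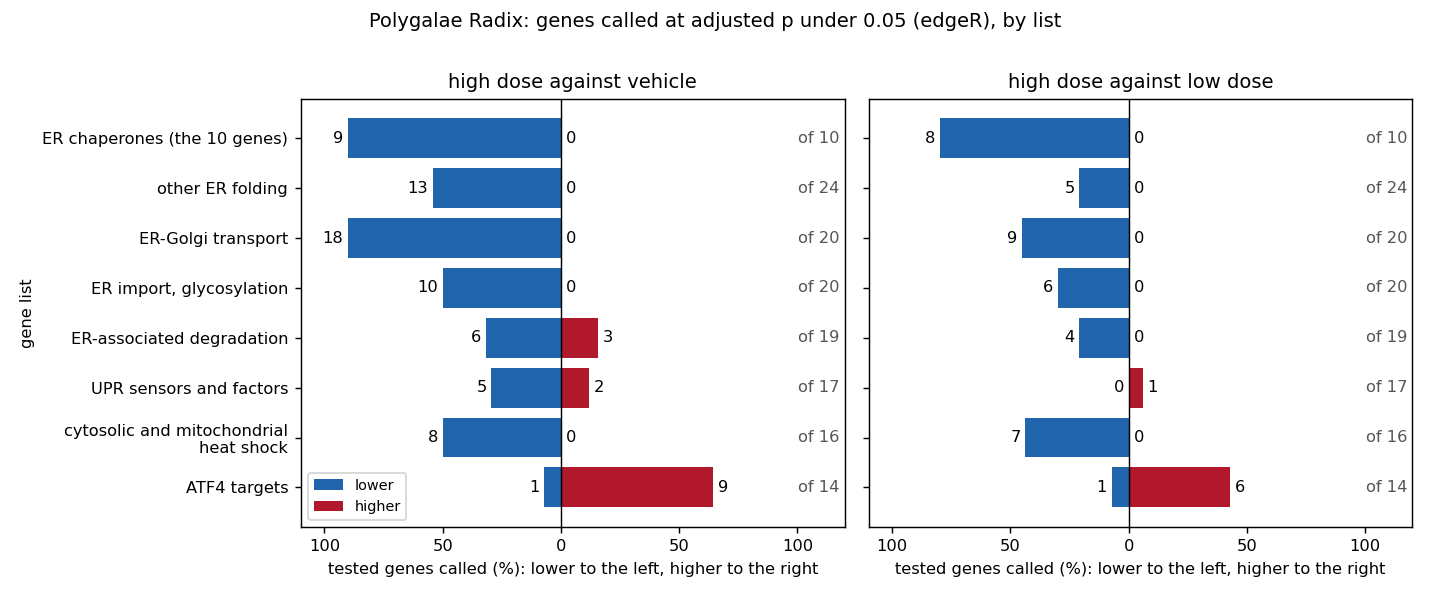
Share of the tested genes of each list (y axis) called lower (blue, to the left) or higher (red, to the right) in percent (x axis), for the high dose of Polygalae against the vehicle and against its low dose, with the number of genes at each bar. ER-Golgi transport fell for 18 of 20 genes against the vehicle, and ATF4 targets are the 1 list with more genes higher than lower in both panels.

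Reads of some of the 10 genes could be shared with other loci. HSP90B1, PDIA6, HYOU1, DNAJB9, CRELD2 and CALR overlap genes on the opposite strand in the annotation, among them ALG12 for CRELD2, and the strand setting of the counting is not given in the sources used here. Expected counts that are not whole, which arise when reads are divided among genes, stood in 98.3% of libraries for PDIA6, 95.0% for CALR, 80.0% for CRELD2, 58.3% for HSPA5 and 31.7% for HSP90B1, and in 0% for PDIA4, SDF2L1 and MANF. The processed pseudogenes HSP90B2P, HSP90B3P and HSPA5P1 had at most 8 counts in any library.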

How the data were processed

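The deposited table holds expected counts per gene, estimated numbers of read pairs, for 60 libraries. Per the labels' protocols, a directional mRNA kit was used on RNA of integrity number over 7, with 100 bp paired reads. FastQC 0.11.9, Trim Galore 0.6.5, STAR 2.7.3a, RSEM 1.3.3, hg38 and GRCh38 are named in the submitters' processing notes, and the annotation release is not given in the sources used here. Counts were rounded. Identifiers were matched to symbols (57055 of 60675) and GENCODE 29. In R 4.3.3, edgeR 4.0.16 was fitted to all 60 libraries with a term per group (TMM scaling, filterByExpr). The 16517 genes kept held all but 0.0534% of counts, and 33 contrasts were tested with a 2-sided quasi-likelihood test. The SE is the unshrunk log2 coefficient divided by the root of F. The script was tested on simulated counts. No 2 libraries held identical columns.

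The 10 genes and the lists of related genes were chosen with earlier results of these data known. Named outside the 10 are, per list, the 3 largest rises and falls among genes called in Polygalae high against low, the factors XBP1, ATF6, ATF4, DDIT3, ERN1, EIF2AK3 and HERPUD1, the 10 most and 3 least alike genes of at least 5 CPM (log2 CPM with a prior count of 2), and the hepatocyte markers ALB and HNF4A (354 to 497 CPM). No block was used because the labels do not say what a replicate number shares. In no Polygalae comparison did all same-numbered libraries deviate together (r over 0.1). They did in low-dose Liriopis against vehicle and in high against low Schisandrae and Zizyphi, where 0 of the 10 genes were called with or without the block. Promoters are from the RefSeq table of GRCh38.p14, which held all 10 genes. Alternatives were other size factors and filters, a replicate block, DESeq2 1.42.0, fits of only the groups compared and leaving out each library. Library covariates, a block within code sets and a fit without the 4 libraries of lowest GC slope were added after seeing the data.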

Additional observations from a re-analysis of the deposited data

Results flagged for a closer look

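The change from low to high dose differed between Polygalae and another extract for 31 of the 50 pairs of gene and extract tested with an interaction contrast in edgeR, all of them lower under Polygalae. Of all tested genes, 0.872% were called lower beside Liriopis, 3.6% beside Schisandrae, 0.702% beside Longan, 1.31% beside Zizyphi and 4.18% beside Aucklandiae. The log2 difference from Liriopis was -0.34 for HSPA5, -0.30 for HSP90B1, -0.47 for PDIA4, -0.22 for PDIA6, -0.42 for HYOU1, -0.44 for CRELD2 and -0.37 for CALR. Beside Schisandrae it was -0.46 for HSPA5, -0.38 for HSP90B1, -0.48 for PDIA4, -0.35 for PDIA6, -0.48 for HYOU1, -0.43 for CRELD2 and -0.28 for CALR. Beside Longan it was -0.42 for HSPA5, -0.42 for HSP90B1, -0.47 for PDIA4, -0.32 for PDIA6, -0.39 for HYOU1 and -0.33 for CALR. Beside Zizyphi it was -0.46 for HSPA5, -0.41 for HSP90B1, -0.50 for PDIA4, -0.30 for PDIA6, -0.47 for HYOU1, -0.46 for CRELD2 and -0.45 for CALR. Beside Aucklandiae, which shares the code set of Polygalae, it was -0.19 for HSPA5, -0.42 for PDIA4, -0.26 for PDIA6 and -0.33 for HYOU1. Several of these calls were lost in most of the 12 fits that each left 1 library out: HSP90B1 beside Liriopis in 10, PDIA6 beside Liriopis in 9, CALR beside Longan in 9, CALR beside Schisandrae in 8 and HSPA5 beside Aucklandiae in 7. CRELD2 beside Liriopis was lost in 3 and CALR beside Liriopis in 1. The 5 contrasts share the 6 Polygalae libraries and are not independent of one another. No group has 4 or more libraries, so that no single library was tested for standing apart.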

How the results depend on the processing

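No direction reversed for a called gene. Over 14 comparisons and 2430 values of single genes, leaving out 1 library kept the side of the threshold for 1068 values, ended a call for 94 and made one for 8. For the 9 other settings the numbers were 1171, 54 and 35. In 29 values the sign changed with no call under either setting. Leaving out 1 library gave 8 to 9 genes lower for high-dose Polygalae against the vehicle, 6 to 8 for the medium dose, 5 for the low dose, 7 to 9 for high against low, 4 to 6 for high against medium and 0 to 5 for medium against low. It gave 4 to 7 for Polygalae less Liriopis, 10 to 16 lower pairs of gene and group outside Polygalae, and over the 7 related lists from low to high 20 to 28 genes lower and 3 to 6 higher.

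With no filter on low counts 1 gene, SDF2L1, was called higher at low-dose Polygalae and at high-dose Aucklandiae, and 1 of the 160 pairs was higher. With the library covariates 3 genes were lower at low-dose Polygalae, 1 gene differed between the dose steps, 1 pair outside Polygalae was higher, and from low to high of the other extracts 7 pairs were lower and 1 higher, while 49 genes of the related lists fell. DESeq2 gave 1 gene that differed between the dose steps and 1 higher pair. Fits of only the groups compared gave 5 genes at medium-dose Polygalae against the vehicle, 0 for high against medium, 0 for medium against low, 3 for Polygalae less Liriopis, 1 higher under high-dose Aucklandiae and 1 higher pair. The cause was not tested, beyond the fewer libraries behind each estimate of spread in those fits. With a replicate block across the whole fit, 9 genes were lower at high-dose Polygalae against the vehicle and 9 from low to high, where SDF2L1 gained a call. The numbers are not stated to pair the cultures, and in no Polygalae comparison did each library correlate best with its own number.

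With 3 libraries a group, the called log2 change nearest 0 was -0.11, of PDIA6 under wortmannin, and comparisons with the vehicle cross code sets whose meaning is not given.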

Other observations

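Genes beyond the 10 whose promoter window holds an ERSE or ERSE-II gave a mixed picture at high-dose Polygalae against the vehicle. Of 24 such genes that were tested, 4 fell and 2 rose, where 9.94% of all genes were called lower and 10.2% higher. Those that fell were FICD, an enzyme that modifies HSPA5 (-0.57 ± 0.13, adjusted p = 0.00137), HERPUD1 (-0.35 ± 0.05, adjusted p = 1.56e-06), the Golgi calcium protein NUCB1 (-0.29 ± 0.06, adjusted p = 0.000191) and the membrane lectin chaperone CANX (-0.23 ± 0.05, adjusted p = 0.000207), the partner of CALR. XBP1 (0.25 ± 0.09, adjusted p = 0.0498) and TMEM120A (0.22 ± 0.07, adjusted p = 0.0114) rose. ALG12, which shares its promoter region with CRELD2 on the opposite strand, had 0.08 ± 0.07, adjusted p = 0.463 and was not called. These genes were chosen by the letters of their promoters, and no test of the group was made.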
